A study of Rattus norvegicus with 9 samples.

Results

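The genes described here are 10 members of the pathway by which Toll-like receptors switch on NF-kB: the receptors Tlr2 and Tlr4, the adaptor Myd88, the ligand Hmgb1, the NF-kB subunits Nfkb1 and Rela, the inhibitors Nfkbia and Tnfaip3, and the adhesion molecules Icam1 and Vcam1. They were chosen by name, and every gene probe whose gene name in the array files is 1 of these was taken. This gave 14 probes for the 10 genes, of 30367 gene probes for 26115 gene names on the array. Of the 14 probes 10 passed the filter on dim probes, which left 8 of the 10 genes with a value that could be tested. Tlr4 and Tnfaip3 were the genes without one.

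Toll-like receptors recognise microbial molecules and, in injured tissue, molecules that dying cells release. Through MYD88 and a chain of kinases they lead to the breakdown of IκB proteins, which hold NF-kB in the cytoplasm, and the freed NF-kB enters the nucleus and starts the transcription of adhesion molecules, chemokines and of its own inhibitors. In the kidney both tubular epithelium and endothelium carry these receptors, and the pathway is known for its part in the inflammation that follows ischaemia and reperfusion. Much of its control acts on proteins that are already made, which arrays do not read.

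The arrays compared 5 NP kidneys with 4 MSC kidneys, 1 array for each kidney, to ask which transcripts differ after perfusion with mesenchymal stromal cells. NP kidneys were left kidneys of Fisher F344 rats taken after 20 min. of warm ischaemia and stored without perfusion. MSC kidneys had the same ischaemia and were then perfused for 4 hrs at 4°C with Belzer solution (BS) to which 3000000 MSC had been added. The MSC came from the bone marrow of transgenic Sprague Dawley rats that express EGFP, so they were of another strain than the kidney, and MSC that stayed in a kidney added their RNA to its array. The groups differ in the perfusion as well as in the MSC, and these cannot be told apart. The submitters' labels are divided on the NP kidneys, since the treatment field calls them not perfused, as the study's methods do, while the titles name perfusion with BS. A further MSC array, which the study discarded, was not analysed here. The arrays lay on 2 slides, each scanned separately, with NP replicates 1, 2 and 3 and MSC replicates 1 and 2 on slide 1, and NP replicates 4 and 5 and MSC replicates 3 and 4 on slide 2. NP replicates 1 and 2 stood apart from the rest, with a Pearson's r of 0.964 to each other, the lowest between 2 arrays, and the members' counts are also given without them. The share of spots well above background was 65.6% to 74.3%, no gene spot was saturated, and markers of kidney tubule and glomerulus were detected for all 10 genes listed. Values are normalized log2 intensities of the Cy3-labelled RNA, so a difference of 1 is a 2-fold difference. They compare arrays at 1 probe and do not rank probes or genes. In whole kidneys, fewer cells of a type and less RNA per cell cannot be told apart.

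Probes of 4 members that lie in coding sequence are printed because the readings below rest on them: the brightest Hmgb1 probe, whose place in the genome bears on what it reads, the 2 subunits of NF-kB, and the inhibitor that holds them. Each is given 5′ to 3′, with its position on the rat build rn4 as the files give it.
Hmgb1, probe A_64_P299671, chr16:37462642-37462701: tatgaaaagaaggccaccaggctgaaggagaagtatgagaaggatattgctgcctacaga
Nfkb1, probe A_44_P494130, chr2:233091704-233091763: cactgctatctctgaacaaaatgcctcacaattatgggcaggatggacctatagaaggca
Rela, probe A_64_P046388, chr1:208272360-208272419: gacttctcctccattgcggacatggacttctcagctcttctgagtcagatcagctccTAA
Nfkbia, probe A_44_P261450, chr6:75730438-75730497: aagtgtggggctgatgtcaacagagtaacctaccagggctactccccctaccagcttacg
Capitals mark the stop codon that ends the Rela probe.

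NF-kB binds the κB consensus, a motif of 10 letters, and several of these genes are its textbook targets, so the RefSeq promoters of all 10 members were searched for it on both strands, from 250 bases before to 50 bases after the start. A match was present in 5 of the 10 members, against 7.51% of all 33469 rat promoters of that length (2515 promoters). It lay in the windows of Tlr2, Nfkb1, Nfkbia, Tnfaip3 and Vcam1, and no match was in those of Tlr4, Myd88, Hmgb1, Rela and Icam1. Overlapping matches count as separate, as with 2 of those of Tlr2, which began 206 and 205 bases before the start. The last 120 bases before the start are printed for the 2 inhibitors and for Vcam1, known NF-kB targets with a match in that stretch, on the build GRCr8, in the gene's own direction, with the matches in capitals.
Nfkbia, chr6:78597073-78597192, minus strand: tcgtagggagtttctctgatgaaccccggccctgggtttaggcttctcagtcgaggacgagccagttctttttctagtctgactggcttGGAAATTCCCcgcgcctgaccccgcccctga
Tnfaip3, chr1:15543980-15544099, minus strand: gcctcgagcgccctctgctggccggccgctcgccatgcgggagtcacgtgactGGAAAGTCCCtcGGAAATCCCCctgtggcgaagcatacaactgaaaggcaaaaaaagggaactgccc
Vcam1, chr2:206742784-206742903, minus strand: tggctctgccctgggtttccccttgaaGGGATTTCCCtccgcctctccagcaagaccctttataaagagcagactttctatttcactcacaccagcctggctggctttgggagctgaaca
The Nfkbia match began 31 bases before the start, those of Tnfaip3 67 and 55 bases before it, and that of Vcam1 93 bases before it. A match of letters is a description of the sequence and not a binding site.

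Of the 10 member probes tested 6 were higher and 4 were lower in MSC kidneys, and 0 passed both thresholds, an FDR below 0.05 and more than a 1.5-fold difference, where 0.00% of all 15635 probes passed. At an unadjusted p under 0.05 in limma there were also 0 of 10, against 6.51% of all probes higher and 5.19% lower. The groups overlapped for all 10 probes, while for 5.30% of all probes they did not, with every MSC array above every NP array for 3.17% and below for 2.13%. The median log2 fold change of the member probes was 0.07, against -0.0048 over all probes, and their FDR ran from 0.573 to 0.974 (limma). The largest log2 fold change was 0.54, of Vcam1, and the lowest was -0.28, of Hmgb1. The middle 95% of all probes lay between -0.44 and 0.42, and of the members only Vcam1 was outside it. Without NP replicates 1 and 2 together there were again 6 higher and 4 lower, of which 1 each way had an unadjusted p under 0.05 (6.36% and 7.42% of all probes), with a median of 0.08. With 9 arrays the intervals are wide, and a p that misses the threshold does not show that the groups were equal.

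**Figure D1:**
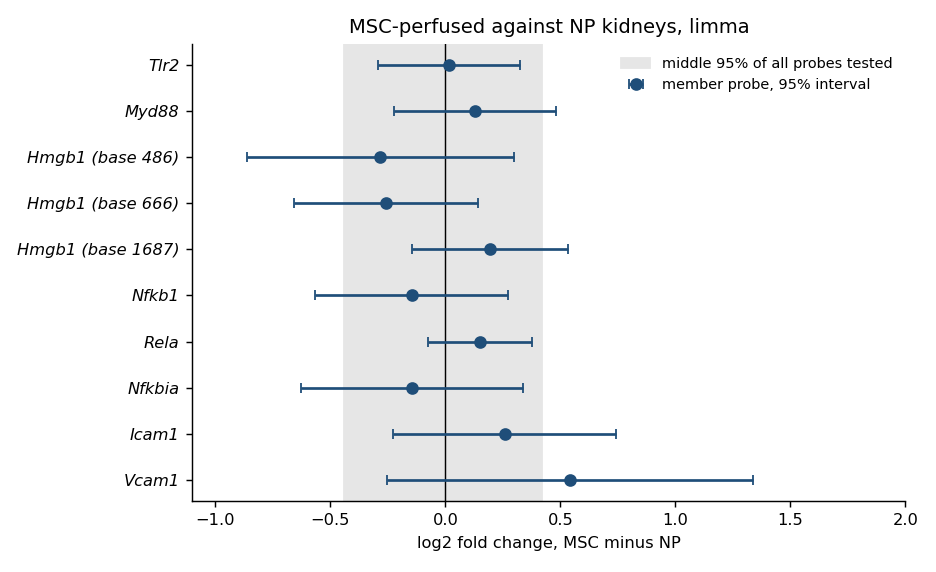
Log2 fold change (MSC minus NP, x axis) of the 10 member probes that passed the filter (y axis), with 95% intervals from limma. Hmgb1 probes are told apart by the base of the transcript at which they start. The grey band is the middle 95% of all 15635 probes, from -0.44 to 0.42. Every interval crosses 0, and the widest is that of Vcam1, from -0.26 to 1.34.

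Tlr2, which recognises bacterial lipoproteins and several molecules released from injured cells, was read by 1 probe on chr2:175608160-175608217. Its normalized log2 intensity was 10.38, 9.82, 9.77, 10.00 and 10.20 in NP replicates 1 to 5 and 9.84, 10.00, 10.16 and 10.19 in MSC replicates 1 to 4. All 4 MSC values lay inside the NP range, and the highest and the lowest value were both of NP kidneys. The means were 10.03 ± 0.26 (SD, n = 5) in NP and 10.05 ± 0.17 (SD, n = 4) in MSC kidneys, and the log2 fold change was 0.02 (SE 0.14), with a 95% interval from -0.29 to 0.32 and an FDR of 0.974 from limma. Its sign was not stable, as it was below 0 in 9 of the 29 alternative settings run.

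Tlr4, the receptor for bacterial lipopolysaccharide and a receptor for HMGB1, was too dim to be tested. Its probe, on chr5:83577410-83577469, was well above background on 2 NP and 2 MSC arrays and above the filter's limit (8.75 to 8.87) on 0 arrays. Its log2 intensity was 8.18, 8.23, 8.18, 8.38 and 8.38 in NP and 8.28, 8.16, 8.66 and 8.21 in MSC kidneys. The groups overlapped, MSC replicate 3 had the highest value and MSC replicate 2 the lowest, and the level is near the background. With no filter the log2 fold change was 0.06 (SE 0.10, FDR 0.916, limma over 30367 probes).

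Myd88 encodes the adaptor that couples most Toll-like receptors and the interleukin-1 receptor to their kinases. Its probe, on chr8:124299763-124299822, read 14.06, 13.97, 13.69, 13.75 and 14.05 in NP and 13.53, 14.25, 14.11 and 14.25 in MSC kidneys. MSC replicates 2, 3 and 4 were above every NP kidney and MSC replicate 1 was below every NP kidney. The means were 13.90 ± 0.17 (SD, n = 5) and 14.03 ± 0.34 (SD, n = 4), a log2 fold change of 0.13 (SE 0.16) with a 95% interval from -0.22 to 0.48 and an FDR of 0.773 (limma). Without MSC replicate 1 the log2 fold change was 0.30, at an unadjusted p of 0.0286 and an FDR of 0.534 in limma, while without MSC replicate 2 or 4 it was 0.06. MSC replicate 1 was also the array with the lowest values of red cell markers, and whether this bears on Myd88 was not tested.

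Hmgb1 encodes a nuclear protein that bends DNA and that acts as a danger signal on TLR2, TLR4 and RAGE when dying cells release it. The gene has near-identical copies in the genome, so its values are uncertain. Of its 4 probes, the 3 that passed were placed by the files on chromosome 16, and the one that did not pass on chr12:6397006-6397065. The 3 starts lie 180 and 1201 bases from the first in the transcript and 180 and 1193 bases from it on the genome, so that no intron separates them there. Which copy the RNA came from cannot be read from the array.

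The Hmgb1 probe printed above, which starts at base 486 of the transcript, read 14.00, 15.56, 14.94, 14.93 and 14.68 in NP and 14.34, 14.71, 14.37 and 14.74 in MSC kidneys. NP replicates 1 and 2 held the lowest and the highest value, and all MSC kidneys lay between them. The log2 fold change was -0.28 (SE 0.26), with a 95% interval from -0.86 to 0.30 and an FDR of 0.691 from limma. Without NP replicate 1 it was -0.49, at an unadjusted p of 0.0274 and an FDR of 0.251, the smallest that any member reached in the alternatives run. Without NP replicate 2 it was -0.097, at an unadjusted p of 0.654, and without NP replicates 1 and 2 together it was -0.31 at an unadjusted p of 0.0425 and an FDR of 0.345.

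The second Hmgb1 probe, at base 666 and on chr16:37462822-37462877, read 13.40, 14.26, 14.00, 13.76 and 13.41 in NP and 13.52, 13.68, 13.32 and 13.51 in MSC kidneys. Its log2 fold change was -0.26 (SE 0.18, FDR 0.595, limma), with NP replicates 2, 3 and 4 above every MSC kidney. The third probe, at base 1687 and on chr16:37463835-37463894, read 11.53, 11.92, 12.12, 11.94 and 11.67 in NP and 12.24, 12.25, 11.90 and 11.72 in MSC kidneys. Here MSC replicates 1 and 2 were above every NP kidney, and the log2 fold change had the other sign, at 0.19 (SE 0.15, FDR 0.639, limma). Leaving out 1 array in turn moved the second probe between -0.35 (without NP replicate 1) and -0.13 (without NP replicate 2) and the third between 0.12 (without NP replicate 1) and 0.30 (without MSC replicate 4). Over the 9 arrays the first and the second probe had a Pearson's r of 0.868 (Spearman's rho 0.833), while the third had an r of 0.238 with the first and of 0.377 with the second (rho 0.30 and 0.60). The probes of this gene thus disagreed in direction. The fourth probe was well above background on 0 arrays.

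Nfkb1 encodes p105, the precursor of the p50 subunit, and its probe is printed above. It read 10.99, 11.70, 11.37, 11.06 and 11.26 in NP and 11.58, 11.24, 10.80 and 10.90 in MSC kidneys. MSC replicates 3 and 4, both on slide 2, were below every NP kidney, and MSC replicates 1 and 2, on slide 1, lay inside the NP range. The means were 11.28 ± 0.28 (SD, n = 5) and 11.13 ± 0.36 (SD, n = 4), a log2 fold change of -0.15 (SE 0.19, 95% interval -0.57 to 0.27, FDR 0.787, limma). It was -0.30 without MSC replicate 1, -0.04 without MSC replicate 3 and -0.04 without NP replicate 2.

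Rela encodes p65, the subunit that carries the transactivation domain and pairs with p50. The printed probe, which ends in the stop codon, read 12.23, 12.28, 12.06, 12.31 and 12.56 in NP and 12.44, 12.48, 12.33 and 12.50 in MSC kidneys. All 4 MSC values were above 4 of the 5 NP values, and below that of NP replicate 5. The means were 12.28 ± 0.18 (SD, n = 5) and 12.44 ± 0.08 (SD, n = 4), a log2 fold change of 0.15 (SE 0.10, 95% interval -0.07 to 0.38, FDR 0.575, limma), and without NP replicate 5 it was 0.22 at an unadjusted p of 0.035 and an FDR of 0.38. Without NP replicate 3 it was 0.09, at an unadjusted p of 0.348. A second Rela probe, near the start of the transcript on chr1:208263526-208263582, was above background on all 9 arrays but above the filter's limit on 0 arrays. With no filter its log2 fold change was 0.16 (SE 0.07), at an unadjusted p of 0.0545 and an FDR of 0.579 in limma, which was the smallest p of the 14 member probes in that setting.

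Nfkbia encodes IκBα, which holds the p50 and p65 pair in the cytoplasm and whose own gene is among the quickest targets of NF-kB. Its probe, printed above, read 13.65, 14.28, 14.08, 14.58 and 14.45 in NP and 13.61, 13.91, 14.33 and 14.40 in MSC kidneys. Both groups spread alike, from NP replicate 1 and MSC replicate 1 at the bottom to the 4 kidneys of slide 2, which held the highest values. The means were 14.21 ± 0.37 (SD, n = 5) and 14.06 ± 0.37 (SD, n = 4), a log2 fold change of -0.15 (SE 0.22, 95% interval -0.63 to 0.34, FDR 0.822, limma), which was -0.29 without NP replicate 1 and 0.0053 without MSC replicate 1. The 2 spots of the probe on an array had a median SD of 0.01 on the log2 scale, while the lowest and the highest kidney differed 1.96-fold.

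Tnfaip3 encodes A20, an enzyme that edits ubiquitin chains and shuts the pathway off, and like Nfkbia it is induced by NF-kB. The files give its probe no place in the genome. It was above the filter's limit on 1 array, MSC replicate 3, and well above background on 3 NP and 4 MSC arrays. It read 8.30, 8.35, 8.23, 8.48 and 8.60 in NP and 8.17, 8.41, 8.91 and 8.59 in MSC kidneys, so the groups overlapped, and with no filter the log2 fold change was 0.13 (SE 0.14, FDR 0.843, limma).

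Icam1 encodes the ligand of leukocyte integrins and is carried by endothelium and, after injury, by tubules. Its probe, on chr8:20051730-20051789, is spotted 10 times on each array and read 12.53, 12.76, 12.56, 13.10 and 13.43 in NP and 13.52, 13.09, 13.25 and 12.68 in MSC kidneys. MSC replicate 1 was above every NP kidney, and the other MSC kidneys lay inside the NP range, whose lowest values were of NP replicates 1 and 3. The means were 12.88 ± 0.38 (SD, n = 5) and 13.14 ± 0.35 (SD, n = 4), a log2 fold change of 0.26 (SE 0.22, FDR 0.660, limma). As a fold the 95% interval ran from 0.855 to 1.67, and the log2 fold change was 0.13 without MSC replicate 1 and 0.41 without MSC replicate 4. The median SD between the 10 spots was 0.11, below the spread between kidneys of either group.

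Vcam1 encodes the ligand of the integrin VLA-4 on lymphocytes and monocytes and is also found on a subset of tubular cells in injured kidneys. Its probe, on chr2:212277695-212277754 and likewise spotted 10 times, read 10.54, 12.67, 11.55, 11.72 and 11.85 in NP and 12.30, 11.70, 12.60 and 12.22 in MSC kidneys. NP replicate 1 was the lowest and NP replicate 2 the highest of all 9 kidneys, a 4.37-fold range among NP kidneys against 1.87-fold among MSC kidneys, with a median SD between spots of 0.13. The means were 11.67 ± 0.76 (SD, n = 5) and 12.21 ± 0.37 (SD, n = 4), and the log2 fold change of 0.54 (SE 0.36) is a fold of 1.46, with a 95% interval from 0.838 to 2.53 and an FDR of 0.573 from limma. Without NP replicate 2 the log2 fold change was 0.79, at an unadjusted p of 0.0239 and an FDR of 0.425. Without NP replicate 1 it was 0.26, at an unadjusted p of 0.342, without MSC replicate 3 it was 0.41, and without NP replicates 1 and 2 together it was 0.50 at an unadjusted p of 0.0297 and an FDR of 0.311. Markers of stromal cells and fibroblasts, which can carry VCAM1, had their lowest mean deviation in NP replicate 1 (-0.57 on the log2 scale) and their highest in NP replicate 2 (0.43). The pattern was not particular to them, as the adaptors and kinases described below were also lowest and highest in these arrays (-0.22 and 0.51). The part of stromal cells in the Vcam1 values was not tested.

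**Figure D2:**
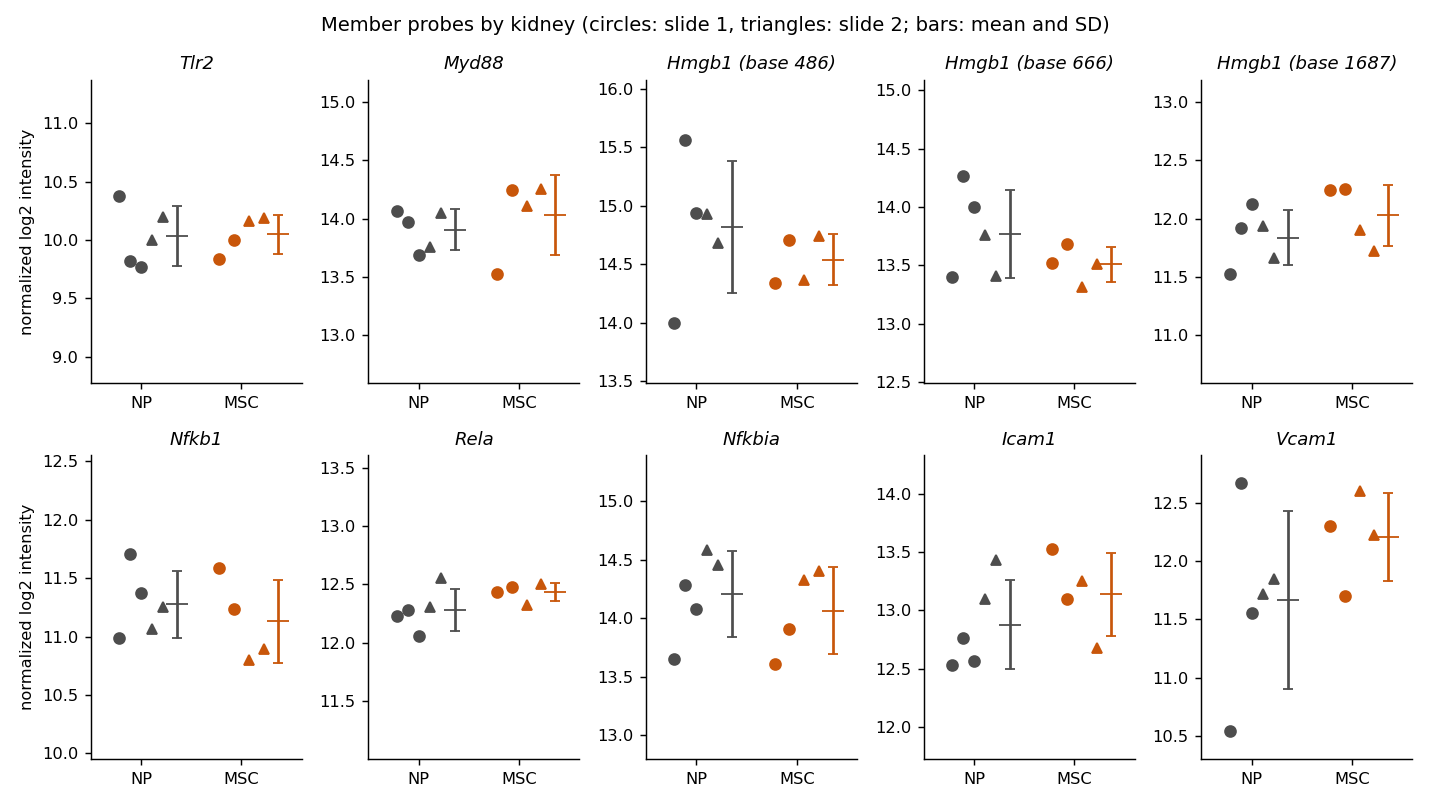
Normalized log2 intensity (y axis, with the same span in every panel) of the 10 member probes in 5 NP and 4 MSC kidneys (x axis). Each point is 1 kidney, circles are on slide 1 and triangles on slide 2, and the bars give mean and SD. The groups overlap in every panel, and NP replicates 1 and 2 span most of the range of the first Hmgb1 probe and of Vcam1.

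Slides were compared because each held both groups. Icam1 was the member for which the slides differed most. On slide 1 both MSC kidneys were above all 3 NP kidneys, a difference of 0.69 on the log2 scale, while on slide 2 the difference was -0.30 and the kidneys overlapped. The test of the difference between the slides, added after the values were seen, gave -0.99 with an unadjusted p of 0.0143 and an FDR of 1 in limma. Vcam1 was higher in MSC kidneys on both slides, by 0.41 on slide 1 and 0.63 on slide 2. The first and the second Hmgb1 probe were lower on both, with differences of -0.31 and -0.25 for the first and -0.28 and -0.17 for the second, and Nfkbia was lower on both, with -0.24 and -0.15. The third Hmgb1 probe was higher on both, by 0.39 and 0.0092. Directions differed between the slides for Tlr2 (-0.07 and 0.08), Myd88 (-0.02 and 0.28), Nfkb1 (0.06 and -0.31) and Rela (0.27 and -0.02). For none of these was the difference between slides past an unadjusted p of 0.05.

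**Figure D3:**
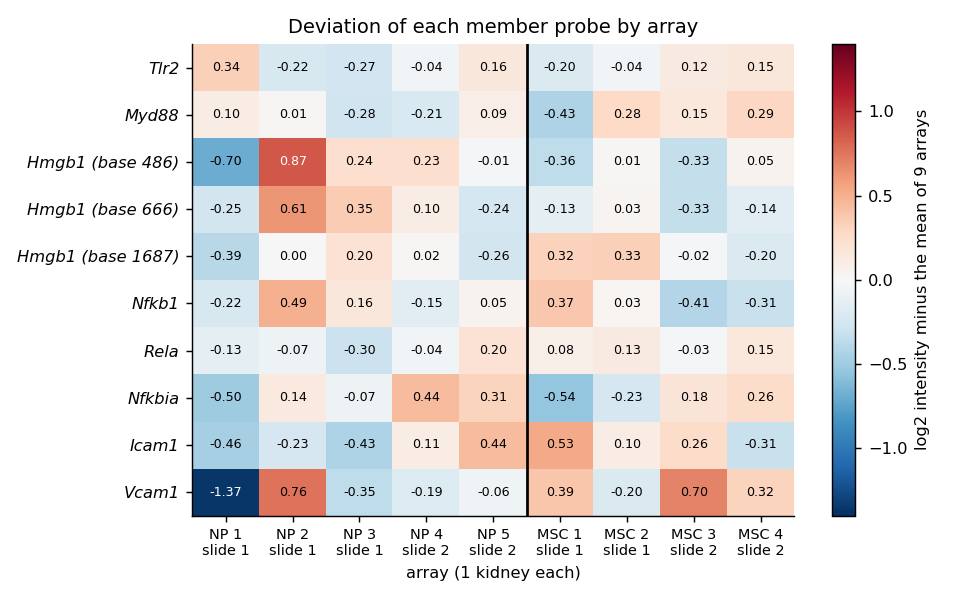
Deviation of each member probe (rows) on each array (columns) from its mean over the 9 arrays, as log2 intensity, in red above and in blue below the mean, with the value printed. The line parts NP from MSC kidneys. No row is red on one side of the line and blue on the other, and the largest deviation is -1.37, of Vcam1 in NP replicate 1.

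The members did not form 1 common pattern over the kidneys. With the brightest probe of each of the 8 genes there were 28 pairs, with a median Pearson's r of 0.10 over the 9 arrays, 4 pairs above 0.5 and 3 below -0.5. Tlr2 and Myd88, a receptor and its adaptor, had the highest r, of 0.636 (Spearman's rho 0.567), which fell to 0.304 without MSC replicate 1 and NP replicate 3, the arrays farthest from the median. Tlr2 and Nfkb1 had the lowest, of -0.768 (rho -0.683), and -0.748 without NP replicate 2 and MSC replicate 3. All values share the arrays and their normalization, and both are given as a description.

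Of the 13768 other genes, those most like Nfkbia over the 9 arrays were Nsd1, a histone methyltransferase (r 0.969, rho 0.933), Men1, which encodes menin (r 0.968, rho 0.933), and Hnf4g, a nuclear receptor (r 0.961, rho 0.95). Leaving out the 2 arrays farthest from the median gave an r of 0.954, 0.902 and 0.936 in that order. Those most like Icam1 were a transcript that the files name only by an accession (r 0.959), Igtp, an interferon-inducible GTPase (r 0.952, rho 0.933, and 0.920 without the 2 farthest arrays), and LOC686785, an unnamed locus (r 0.936, rho 0.917, and 0.940). The genes were picked as the highest of many on few arrays. No such list was made for Tlr4, which did not pass the filter.

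A wider list held 79 further genes of the pathway, of which 76 had a probe and 54 genes with 61 probes passed the filter. Of these probes 28 were higher and 33 lower in MSC kidneys, with 4 in each direction at an unadjusted p under 0.05 in limma, against 6.51% of all probes higher and 5.19% lower, and 0 passed the FDR with the fold change (0.00% of all probes). The median log2 fold change was -0.02, close to that of all probes, and the groups overlapped for all 61, while 5.30% of all probes had no overlap. Without MSC replicate 1 there were 33 higher and 28 lower with a median of 0.01, and without NP replicate 1 there were 7 lower at the unadjusted level (9.09%), against 2 without NP replicate 2 (4.24%) or MSC replicate 1 (3.65%). The list is given by role, and the 3 genes with the smallest p in each direction are described.

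Among the other Toll-like receptors only Tlr3, Tlr6, Tlr12 and Tlr13 passed the filter, with 5 probes, 3 higher and 2 lower and a median of 0.0014, which was 0.02 without NP replicate 1 or MSC replicate 3 and 0.09 without MSC replicate 1. Of the 11 receptors listed 7 were not tested, among them the nucleic acid sensors Tlr7, Tlr8 and Tlr9. Co-receptors and other danger ligands had 8 probes higher and 5 lower, with a median of 0.16 that was 0.03 without NP replicate 1. Ly96, which encodes the MD-2 protein that presents lipopolysaccharide to TLR4, had log2 fold changes of 0.21 and 0.24 at its 2 probes, neither with an unadjusted p under 0.05. The 2 of 13 probes that were lower at that level, against 5.19% of all probes, read S100a8 and S100a9, which encode the subunits of the neutrophil protein calprotectin.

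S100a8 read 9.93, 10.27, 9.48, 9.71 and 9.92 in NP and 7.99, 10.05, 9.07 and 8.94 in MSC kidneys. MSC replicates 1, 3 and 4 were below every NP kidney and MSC replicate 2 lay among them, and the log2 fold change was -0.85 (SE 0.34), with an unadjusted p of 0.0321 and an FDR of 0.395 from limma. S100a9 had a log2 fold change of -0.95, with the lowest value, 8.30, also in MSC replicate 1. MSC replicates 2, 3 and 4 read 10.86, 9.81 and 9.51, against 10.13 to 10.90 in NP kidneys, so MSC replicate 1 weighs on this value. The danger ligand list had 0 of 13 probes lower at an unadjusted p under 0.05 in limma without NP replicate 1 (9.09% of all probes), NP replicate 2 (4.24%), MSC replicate 1 (3.65%) or MSC replicate 3 (3.36%), and the other arrays were not left out for the lists. Red cell markers had 7 of 8 probes lower in MSC kidneys, 4 of them at an unadjusted p under 0.05 (5.19% of all probes), with a summed intensity of 742800 to 1040000 in NP and 124300 to 944400 in MSC kidneys. Their mean deviation on the log2 scale was -2.11, 0.42, -0.72 and 0.34 in MSC replicates 1 to 4, and 0.15 to 0.71 in NP kidneys. Without NP replicate 1 or MSC replicate 3 the count at that level was 1 of 8 (9.09% and 3.36% of all probes), and without MSC replicate 1 it was 2 of 8 (3.65%), with the median log2 fold change going from -1.44 to -0.68. Their part in the S100a8 and S100a9 values was not tested.

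Adaptors and kinases had 1 probe higher and 10 lower, with a median log2 fold change of -0.25, and 1 of the 11 was lower at an unadjusted p under 0.05 (5.19% of all probes). This was Traf3, an adaptor of the branch that leads to interferon. It read 10.58, 12.20, 11.51, 11.22 and 11.06 in NP and 10.51, 10.64, 10.45 and 10.61 in MSC kidneys. NP replicate 2 was the highest and NP replicate 1 overlapped the MSC kidneys, which were all low, and the log2 fold change was -0.76 (SE 0.26), with an unadjusted p of 0.0157 and an FDR of 0.344 (limma). Its second probe had a log2 fold change of -0.29. Ikbkb and Chuk, the kinases that mark IκB for breakdown, had log2 fold changes of -0.15 and -0.05 with FDRs of 0.483 and 0.941 (limma). The Chuk value turns on NP replicate 1, which read 8.97, against 9.52 to 10.09 in the other NP kidneys and 9.48 to 9.76 in MSC kidneys. Without NP replicate 1 there were 6 of the 11 lower at that level, against 9.09% of all probes, and without NP replicate 2 there was 1 (4.24%), with 2 probes higher and 9 lower. Without MSC replicate 3 there were 2 (3.36%), and all 11 probes were lower.

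Rel and IκB proteins other than the members had 2 probes higher and 3 lower with a median of -0.06, and Rel and Relb were not tested. Nfkb2, which encodes p100, the precursor of p52, had a log2 fold change of -0.06 (SE 0.09). The inhibitors of the pathway had 2 probes higher and 7 lower with a median of -0.03. In neither list was a probe under an unadjusted p of 0.05 in limma, against 11.7% of all probes. Without NP replicate 1 the inhibitors had 1 of 9 lower at that level (9.09%), without MSC replicate 1 they had 4 higher and 5 lower, and without NP replicate 2 their median was -0.05. The Rel and IκB median was -0.10 without NP replicate 1 and -0.02 without NP replicate 2.

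NF-kB target genes other than Icam1 and Vcam1 had 12 probes higher and 6 lower, with a median log2 fold change of 0.34. At an unadjusted p under 0.05 in limma 4 of the 18 were higher (6.51% of all probes) and 1 was lower (5.19%), and 0 passed the FDR. Cxcl1, a chemokine that draws neutrophils, read 10.03, 9.95, 9.41, 9.71 and 10.14 in NP and 10.02, 10.93, 12.82 and 11.17 in MSC kidneys. MSC replicates 2, 3 and 4 were above every NP kidney, MSC replicate 3 by far, and MSC replicate 1 lay among the NP kidneys. Its log2 fold change was 1.39 (SE 0.45), with an unadjusted p of 0.012 and an FDR of 0.333. Cxcl2, a related chemokine, had a log2 fold change of 1.09, with MSC replicate 3 highest at 12.81 and MSC replicate 1 at 10.76 below most NP kidneys.

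Selp encodes P-selectin, which platelets and endothelium bring to their surface, and had a log2 fold change of 0.57 (SE 0.19) with an FDR of 0.333 from limma. NP replicates 3, 4 and 5 were below the filter's limit (8.75 to 8.87), the highest of them at 8.68, so their level is near the background. NP replicates 1 and 2, at 9.19 and 8.96, and all MSC kidneys were above the limit. MSC replicate 4 was below NP replicate 1, so the groups overlapped. Plau encodes the urokinase plasminogen activator and had a log2 fold change of 0.51 (SE 0.19, FDR 0.382, limma). It read 13.84, 13.50, 13.83, 14.60 and 14.17 in NP and 14.67, 14.54, 14.48 and 14.32 in MSC kidneys. On slide 1 both MSC kidneys were above every NP kidney, while on slide 2 they lay between the NP kidneys. Ccl5, a chemokine for T cells, was the target with a lower value, at -0.35 (SE 0.14, FDR 0.384). Its MSC values lay between 11.81 and 12.03 and its NP values between 11.83 and 12.55, so that only NP replicate 3 reached into the MSC range. The cytokine genes Tnf and Il1b had log2 fold changes of -0.29 and 0.49 with FDRs of 0.440 and 0.641 (limma). MSC replicate 1 weighs on both, at 8.43 for Tnf and 9.29 for Il1b. The other MSC kidneys read 8.74 to 8.93 and 10.38 to 11.04, and the NP kidneys 8.68 to 9.20 and 9.09 to 10.44. Sele, Il6, Ptgs2 and Nos2 did not pass the filter. Without MSC replicate 1 the list had 14 probes higher and 4 lower, with a median of 0.38, and without MSC replicate 3, the kidney with the highest Cxcl1, also 14 and 4, with a median of 0.30 and 3 of 18 higher at the unadjusted level, against 5.28% of all probes. Without NP replicate 1 it had 11 higher and 7 lower, with 0 of 18 lower at that level (9.09%). The list's mean deviation on the log2 scale was lowest in NP replicate 3 (-0.52) and highest in MSC replicate 3 (0.45). NP replicate 3 was not left out for the lists, so its weight in the median is not known.

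**Figure D4:**
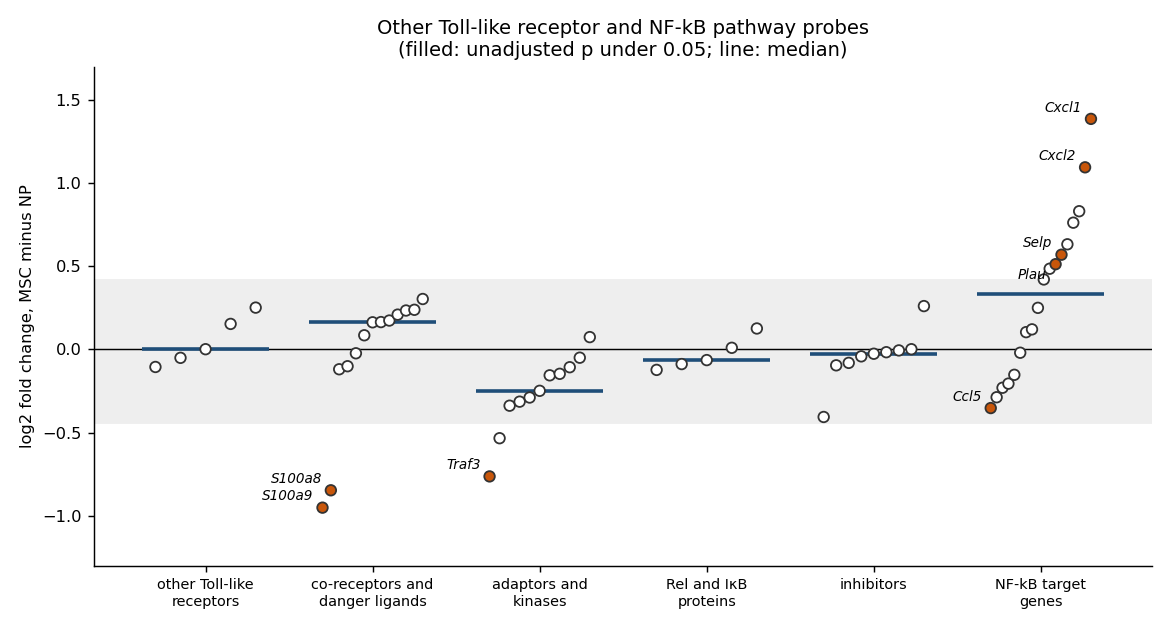
Log2 fold change (MSC minus NP, y axis) of the 61 other pathway probes that passed the filter, by role (x axis). Each point is a probe, filled where the unadjusted p in limma is under 0.05, blue lines are medians and the grey band is the middle 95% of all probes. The medians run from -0.25 for adaptors and kinases to 0.34 for NF-kB target genes, and 8 probes are filled, none with an FDR under 0.05.

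Cell type markers were read beside these genes because receptors and adhesion molecules are carried by endothelium and leukocytes as well as by tubules. Tubule and glomerulus markers had 9 probes higher and 5 lower, with a median log2 fold change of 0.13. At an unadjusted p under 0.05 in limma 3 were higher (6.51% of all probes), 2 of Slc12a3 and 1 of Slc12a1. Endothelial markers had 5 probes higher, 1 of them at that level, and 4 lower with a median log2 fold change of 0.02, and a summed intensity of 91760 to 149900 in NP and 87670 to 156500 in MSC kidneys. Leukocyte markers had 7 higher and 2 lower with a median of 0.19, none under an unadjusted p of 0.05, and sums of 112400 to 183000 and 134900 to 194400. Stromal and fibroblast markers had 8 of 11 probes higher with a median of 0.09 and sums of 36480 to 85060 and 46330 to 81650. At an unadjusted p under 0.05 in limma 2 were higher (6.51% of all probes), both of Col1a1 (1.06 and 0.70). Of the antigens by which the MSC were typed, the genes Thy1 and Itga5 did not pass the filter. Itgb1 passed, with log2 fold changes of 0.08 and 0.03 at its 2 probes. Leaving out 1 array moved some of these values: the tubule and glomerulus median was 0.03 without NP replicate 1, with 1 probe at that level without MSC replicate 1 (4.91%), the leukocyte median was 0.10 without MSC replicate 3, and the stromal median was 0.28 without NP replicate 2, with 3 of 11 probes higher at that level (6.07%). Endothelial markers had 0 probes higher at that level without NP replicate 1 (7.35%), NP replicate 2 (6.07%), MSC replicate 1 (4.91%) or MSC replicate 3 (5.28%), and their median was 0.0042, 0.02, -0.0091 and -0.03 in that order, so that its sign was not stable. Fat markers had 9 of 9 probes higher with a median of 1.23, 3 of them at that level (6.51% of all probes). Without MSC replicate 3 the median was 0.54 with 2 at that level (5.28%), and without MSC replicate 1 it was 1.82 with 7 (4.91%). They were highest in MSC replicates 3 and 4 (mean deviations of 2.14 and 1.49), the first of which also had the highest Cxcl1. The fat deviation was -0.02 in MSC replicate 2, with Cxcl1 at 10.93, and 0.11 in NP replicate 1, with Cxcl1 at 10.03. Leukocyte markers too had their highest mean deviation in MSC replicate 3 (0.30), and their lowest in NP replicate 3 (-0.39). The part of either marker list in the Cxcl1 values was not tested.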

How the data were processed

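The members and all lists were chosen with earlier results of these data known. The authors deposited the spot intensity from Agilent Feature Extraction 10.7.3.1 for each array, without background subtraction in the column used here, and a table of log2 values which they had normalized in limma. Here the mean intensity was log2 transformed and normalized by cyclic loess in limma 3.58.1 (R 4.3.3), without background subtraction, and had a Pearson's r of at least 0.9999 with the deposited log2 values. Flagged spots (273 to 593 per array) were left out and spots of a probe averaged. Probes were kept that on 4 or more arrays exceeded the negative controls' 95th percentile, multiplied by 1.1 on the log2 scale. The median raw intensity per array was 576.6 to 917.1 against 217.1 to 237.5 for negative controls, and the number of arrays limits the precision.

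Probes were compared with lmFit and eBayes of limma, without a block, with Benjamini-Hochberg FDRs over 15635 probes. The methods' choice of 1 probe per gene was an alternative, since all probes are described. The rule for named genes took every member, the 3 pathway genes with the smallest p in each direction and the 3 genes most like Nfkbia and Icam1. Of the others, Cxcl2, S100a9, Ly96, Ikbkb, Chuk, Nfkb2, Tnf and Il1b were chosen after their values were seen. Each array was taken as a separate animal, since the left kidney of each rat was used. The numbers were not taken as pairs, since same-numbered arrays deviated together with an r of 0.20, 0.32, -0.35 and 0.05, and number 3 lay on different slides. MSC replicates 1 and 2 were each most like the NP array of the same number, so these values do not settle whether the numbers mark pairs. Probe names and rn4 positions are those of the files, and 12 of 14 accessions were found in a current RefSeq table, 12 with the same symbol. Promoters are from RefSeq on GRCr8. The steps were tested on simulated data. Alternatives changed the intensity column, normalization, filter, probe choice, variance model or block, or left out arrays.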

Additional observations from a re-analysis of the deposited data

How the results depend on the processing

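None of the 10 member probes reached an FDR under 0.05 in the 27 of 29 alternatives that gave a test, and over all 29 alternatives 272 of 286 values kept their sign. The differences within each slide had no test. The counts of all probes past the thresholds were 0 higher and 0 lower in each of the 27 but 3. Array weights gave 2 higher, an unadjusted p with no fold change gave 1018 higher and 811 lower, and leaving out NP replicates 1 and 2 together, chosen after seeing the data, gave 1 lower. Tlr2 turned to -0.00098 with the median pixel intensity, -0.0022 with the deposited log2 values, -0.033 with array weights, -0.0026 with the slide as a block, -0.071 within slide 1, and between -0.050 and 0.10 when 1 array was left out. Within slide 1 Myd88 turned to -0.020 and Nfkb1 to 0.058, and within slide 2 Rela turned to -0.017 and Icam1 to -0.30. Leaving out 1 array moved Nfkbia between -0.29 and 0.0053, the latter without MSC replicate 1. The median of the members lay between 0.012 and 0.11 when 1 array was left out, and was 0.019 within slide 1 and -0.084 within slide 2.

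With the replicate number as a block, in which NP replicate 5 has no partner and drops out, 0 probes were higher and 0 lower past the thresholds and the median of the members was 0.10. The block brought Rela to 0.22 at an unadjusted p of 0.0481 and an FDR of 0.44, and changed no call. The number of arrays and, for Tlr4, Tnfaip3 and 2 further probes, a signal too dim to pass the filter, limit what can be seen.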
